A study of Mus musculus with 13 samples.

Results

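The respiratory chain genes described here were the 111 genes, of 25655 in the tables, whose symbols begin with mt-, Nduf, Uqcr, Atp5 or Cox followed by a digit from 4 to 8, together with Sdha, Sdhb, Sdhc, Sdhd and Cyc1. They were chosen by name and not by a level or a test, although earlier results of these data were known. Of the 111, 13 are the mRNA genes of mitochondrial DNA (written mt-mRNA below) and 98 are nuclear genes. The nuclear genes comprised 38 complex I subunits, 8 complex I assembly factors, 4 genes of complex II, 9 of complex III, 21 of complex IV (Ndufa4 and Ndufa4l2 among them) and 18 of complex V. Mitochondrial rRNA and tRNA genes are not analysed here. 105 genes, 13 mt-mRNA and 92 nuclear, reached 1 TPM (a level per transcript length, scaled to a sum of 1000000 in each library) in at least 6 libraries and entered the tests. The other 6 were Cox7b2, Cox8b, Cox8c, Cox5b-ps, Ndufb11b and Atp5o_1, with mean levels of 0.510 TPM (Cox8b) or less.

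The respiratory chain sits in the inner mitochondrial membrane. Complexes I and II feed electrons from NADH and succinate to complex III, cytochrome c carries them to complex IV, which reduces oxygen, and complex V uses the resulting proton gradient to make ATP. Mitochondrial DNA codes for core subunits of complexes I, III, IV and V and for none of complex II. Its mRNAs are cut from long transcripts of either strand and translated inside the organelle, whereas nuclear subunits are transcribed separately and imported, so the assembly of each mixed complex draws on products of both genomes.

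RNA came from primary cultures of dermal fibroblasts, the collagen-producing cells of the skin, taken from neonatal mice. The cultures were either wild type (WT) or homozygous for the G234D substitution in Fbn1 (Fbn1 G234D/G234D, written G234D below), the gene of the matrix protein fibrillin-1, and none was treated. The series asks whether the mutation changes gene expression within the fibroblasts themselves. Set 1 held 4 WT (W1 to W4) and 4 G234D (M1 to M4) cultures, and the additional set 2 held 2 WT (W5, W6) and 3 G234D (M5 to M7). The labels used here give no strain, sex or passage, and nothing says how many cells other than fibroblasts each culture held. Animal numbers in the titles divide set 1 into earlier animals (W1, W2, M1, M2) and later animals (W3, W4, M3, M4). This division was made in earlier work with results of these data known. P-values that rest on it therefore do not test a split set in advance. The number of W1 lies apart from those of the other 3 earlier animals. No label says that a group of numbers shares a litter, day or run.

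Between 11741 and 12042 genes reached 1 TPM per library. TPM carry no read totals, and without them the depth and any counting interval are unknown. The level of Fbn1 does not check the labels, since the mutation is a substitution. It was at 400 to 600 TPM, with a G234D minus WT log2 difference over both sets of 0.15 (SE 0.058, limma, Benjamini-Hochberg adjusted p = 0.742). Fibroblast markers were abundant in all 13 libraries: Col1a1, Col1a2 and Col3a1 were at 9405 TPM or more, 6076 TPM or more and 1676 TPM or more. Markers of other cells were much lower. Acta1, the skeletal actin gene, led the muscle markers at 191 and 189 TPM in M1 and M2 and at 133 TPM or less elsewhere. Lyz2, a lysozyme gene, led the macrophage markers at 106 and 135 TPM in M1 and M2 and at 97.9 TPM or less elsewhere. The macrophage markers C1qa and C1qb were highest in M2, at 17.8 and 14.6 TPM, but not in M1, at 11.9 and 9.24 TPM. Elsewhere they reached 15.7 and 12.5 TPM. Ngfr, a neurotrophin receptor gene, led the Schwann cell and melanocyte markers at 62.5 and 65.8 TPM in M1 and M2 and at 21.2 TPM or less elsewhere. The summed level of 16 skeletal muscle markers was 540 TPM in M1, 407 TPM in M2 and 81.1 to 196 TPM in the other 11 libraries. The 11 macrophage markers summed to 167 TPM in M1 and 219 TPM in M2, to 33.7 to 97.3 TPM in the other 6 libraries of set 1, and to 105 to 166 TPM in set 2. The 10 Schwann cell and melanocyte markers summed to 139 and 141 TPM in M1 and M2 and to 23.8 to 49.5 TPM elsewhere. Keratinocyte, endothelial and adipocyte markers summed to at most 8.59, 11.2 and 24.7 TPM, and Cidec, an adipocyte gene, was at 0 in every library.

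The most abundant respiratory chain transcripts came from mitochondrial DNA. The cytochrome oxidase mRNA mt-Co1 had the highest mean, 8154 TPM over the 13 libraries, followed by mt-Co2 at 7971 TPM, mt-Co3 at 7023 TPM and the ATP synthase mRNA mt-Atp6 at 6484 TPM. mt-Cytb, the cytochrome b of complex III, averaged 3643 TPM. The complex I mRNAs were lower, from mt-Nd1 at 3219 TPM to mt-Nd6 at 1172 TPM, the lowest of the 13. Among nuclear genes Atp5b, the catalytic beta subunit of complex V, was highest at 1418 TPM, above the level of mt-Nd6, mt-Nd4l and mt-Nd5. The median gene of complex V was at 298 TPM, of complex IV at 243 TPM, of complex III at 226 TPM, of complex II at 166 TPM and of the complex I subunits at 113 TPM. The highest genes of these groups were Cox4i1 at 825 TPM, Uqcrh (the complex III hinge protein) at 330 TPM, Sdhb (the iron-sulphur subunit of complex II) at 196 TPM and Ndufa7 at 335 TPM. The 8 assembly factors, which help build complex I and are not part of it, had a median of 17.3 TPM and reached 25.0 TPM with Ndufaf8.

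Over all libraries of set 1 the mt-mRNA varied more than the typical nuclear gene. The 98 nuclear genes together held 1.70% to 1.91% of all TPM. The 13 mt-mRNA held 4.59% in W1, 4.53% in W2, 5.67% in M1 and 5.21% in M2 among the earlier animals. Among the later animals they held 4.70% in W3, 4.57% in W4, 4.5% in M3 and 3.89% in M4. The highest value of set 1 was therefore M1 and the lowest M4, both G234D, while the 4 WT libraries lay within 4.53% to 4.70%. In set 2 the shares were 5.01% in W5, 4.52% in W6, 4.51% in M5, 5.35% in M6 and 4.80% in M7, and the genotypes overlapped. The ratio of summed mt-mRNA to summed nuclear TPM ran from 2.04 in M4 to 3.00 in M1 and 3.06 in M6. Per gene, the coefficient of variation over the 8 libraries of set 1 had a median of 13.3% for mt-mRNA (range 7.61% to 17.0%) and 5.38% for the 92 tested nuclear genes (range 2.20% to 41.7%). Within the WT libraries of set 1 the mt-mRNA sum and the nuclear sum were at 45984 ± 754 TPM and 18366 ± 380 TPM (SD, n = 4). In set 2 the medians were 8.65% and 5.29%. As the RNA is from bulk cultures, fewer cells of a type and less RNA per cell cannot be told apart.

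**Figure D1:**
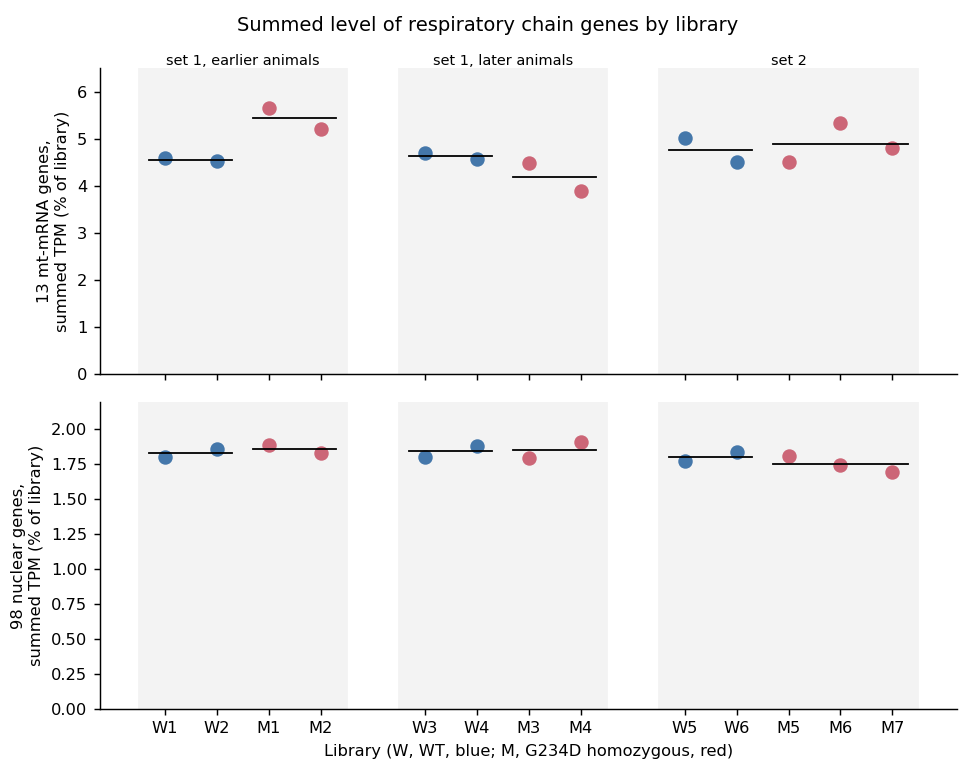
Summed TPM of the 13 mt-mRNA genes (top) and of the 98 nuclear respiratory chain genes (bottom), as a percent of each library, with WT libraries in blue, G234D libraries in red and a line at each group mean. The mt-mRNA share ranges from 3.89% in M4 to 5.67% in M1, while the nuclear share stays between 1.70% and 1.91%.

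No respiratory chain gene passed the test for genotype. With the 13 libraries fitted together and a term for set, 0 of 105 genes were called at an adjusted p under 0.05 (limma on log2(TPM + 1), Benjamini-Hochberg over all genes), against 0 of 11942 genes tested (0%). At an unadjusted p under 0.05 there were 4 of the 105, against 769 of all genes (6.44%). The median log2 difference, G234D minus WT, was -0.0087 over the 92 nuclear genes, 0.061 over the 13 mt-mRNA and 0.011 over all genes. All 13 mt-mRNA differences were positive, from 0.010 for mt-Nd1 to 0.17 for mt-Atp8 (SE 0.094), and none was called. For 97 of the 105 genes, 10 of them mt-mRNA, the 95% interval lay within 0.32 of 0 on the log2 scale. The other 8 were mt-Atp8, mt-Nd4l and mt-Nd5, whose upper bounds were 0.37, 0.41 and 0.36 on the log2 scale, and the low-level genes Cox4i2, Cox6a2, Cox6b2, Cox7a1 and Ndufa4l2.

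Among the genes with the lowest p over both sets were a complex I subunit and both core proteins of complex III. Ndufa3, a small accessory subunit of complex I, was at 155 to 166 TPM in W1 to W4 and at 187, 166, 188 and 185 TPM in M1 to M4, so that in set 1 every G234D library was above every WT library, M2 by the smallest margin (1.97% of all genes showed this). In set 2, where Ndufa3 was at 156 and 161 TPM in WT and at 180, 152 and 154 TPM in G234D, the genotypes overlapped. Its difference was 0.17 in set 1 (SE 0.050, adjusted p = 0.640) and 0.12 over both sets (SE 0.048, adjusted p = 0.742). The 2 core proteins of complex III differed in sign, with Uqcrc2 at 0.069 (SE 0.028) and Uqcrc1 at -0.081 (SE 0.034), at adjusted p values of 0.742 and 0.748. The 4 subunits of complex II, which has no mitochondrially encoded part, had differences between -0.031 and 0.071.

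Within set 1 alone 0 of 105 genes were called (limma; 0 of 11905 genes, 0%), with 4 at an unadjusted p under 0.05 against 721 of all genes (6.06%). They included Ndufa3, Uqcrc1 and Ndufa7, a complex I accessory subunit at 0.13 (SE 0.045, adjusted p = 0.728). In set 2 alone 0 of 105 were called, against 1 of 12060 genes (0.00829%). There the nuclear genes leaned lower in G234D: 67 of 92 differences were negative, with a median of -0.045, against a median of 0.030 over all genes tested. This lean was not shared by all 3 G234D libraries: against the mean of W5 and W6, 19 of the 92 genes were higher in M7 and 30 in M6, but 51 in M5. In the same comparison 9 of 9 macrophage markers and 14 of 15 muscle markers had positive differences, and their part in the lean was not tested. 4 nuclear genes had an unadjusted p under 0.05, all lower, against 781 of all genes in either direction (6.48%) and 2.25% lower. They included Ndufa4 at -0.12 (SE 0.050, adjusted p = 0.762), Ndufaf3, a complex I assembly factor, at -0.28 (SE 0.115, adjusted p = 0.750), and Ndufb9 at -0.14 (SE 0.056, adjusted p = 0.750).

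Atp5mpl, a small membrane subunit of complex V (chr12:111961375-111966977, minus strand, mm10), showed the lowest p of the 105 genes in set 2. It was at 147 TPM in W5 and 153 TPM in W6, and at 117, 122 and 112 TPM in M5, M6 and M7. All 3 G234D libraries lay below both WT libraries, as they did for 13 of the 92 nuclear genes and for 6.95% of all 11942 genes. The difference was -0.36 (SE 0.056, limma, adjusted p = 0.202). In set 1 it was at 142, 136, 133 and 151 TPM in W1 to W4 and at 154, 134, 130 and 148 TPM in M1 to M4. These ranges coincide, and the set 1 difference was 0.013 (SE 0.065). The test of the difference between the sets gave -0.37 (SE 0.096, adjusted p = 0.630), with 0 of 105 genes called, 0 of 11942 overall (0%), and 8 of 105 against 691 of all genes (5.79%) at an unadjusted p under 0.05. All 8 were nuclear genes with a more negative genotype difference in set 2, a direction that 2.02% of all genes showed at this p.

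The remaining genes with the lowest p in a direction stayed far from the threshold. Ndufc1 (50.6 to 59.5 TPM), a complex I accessory subunit, had differences of 0.11 in set 1 and -0.10 in set 2 (adjusted p = 0.831 and 0.794). Ndufb7 (150 to 205 TPM), another accessory subunit, was at -0.11 in set 1 (adjusted p = 0.858). In set 2 the accessory subunit Ndufa12 (72.2 to 89.1 TPM) was at 0.088, and Ndufs1 (70.7 to 82.5 TPM), the largest core subunit of complex I, at 0.074 (adjusted p = 0.806 and 0.842). None of these 4 complex I genes was called. The assembly factors Ndufaf4 (10.3 to 14.2 TPM) and Ndufaf2 (11.2 to 14.1 TPM) had the lowest p among positive changes of the genotype difference, Ndufaf4 between the sets (0.20, adjusted p = 0.891) and Ndufaf2 between the animal groups of set 1 (0.30, adjusted p = 0.265). Cyc1, the cytochrome c1 of complex III, was at 109 to 132 TPM, with a genotype difference over both sets of 0.00012 (SE 0.034, limma).

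**Figure D2:**
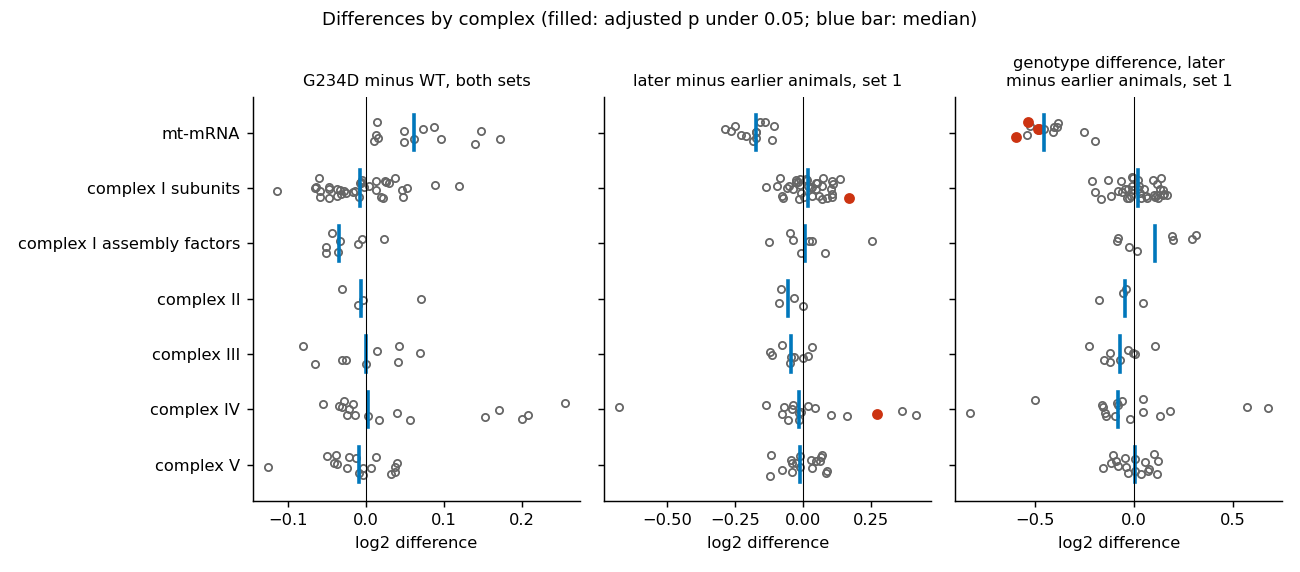
Log2 differences of the 105 tested genes by group for genotype over both sets (left), later against earlier animals of set 1 (middle) and the change of the genotype difference between these animal groups (right), with the group median as a blue bar and called genes filled. Differences of nuclear groups centre near 0 in all 3 panels, and the mt-mRNA median is 0.061, -0.18 and -0.45.

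The genotype difference of 4 mt-mRNA differed between the earlier and the later animals of set 1. In the earlier animals all 13 mt-mRNA were higher in M1 and M2 than in W1 and W2, with no overlap, by a median log2 difference of 0.27 (range 0.16 for mt-Co3 to 0.43 for mt-Nd6). With 2 libraries against 2, no overlap in the higher direction is common, and 27.5% of all 11942 genes showed it. In the later animals 11 of 13 differences were negative, with a median of -0.17, and 5 mRNA (mt-Nd1, mt-Nd2, mt-Co2, mt-Atp6 and mt-Cytb) were lower in M3 and M4 without overlap, against 18.4% of all genes. In set 2 the median was 0.062, 9 of 13 differences were positive, and 0 of 13 were without overlap, against 16.6% of all genes higher and 6.95% lower. Over the 92 nuclear genes the medians in these 3 comparisons were 0.021, -0.0019 and -0.045.

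mt-Nd1, a membrane subunit of complex I (chrM:2751-3707), carried the lowest p of this contrast. It was at 3198 and 3154 TPM in W1 and W2, and at 3992 and 3594 TPM in M1 and M2. In the later animals it was at 3310 and 3289 TPM in W3 and W4, and at 2887 and 2556 TPM in M3 and M4. The WT libraries were alike in either animal group, and the G234D libraries lay above them in the earlier and below them in the later animals. The genotype difference was lower in the later animals by a log2 value of -0.53 (SE 0.097, limma interaction term, adjusted p = 0.0253).

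mt-Nd2, another membrane subunit of complex I (chrM:3914-4951), was at 1439 and 1424 TPM in W1 and W2, 1937 and 1737 TPM in M1 and M2, 1505 and 1377 TPM in W3 and W4, and 1340 and 1114 TPM in M3 and M4. Its interaction was -0.59 (SE 0.13, adjusted p = 0.0483). mt-Cytb (chrM:14145-15288) was at 3484 and 3433 TPM, 4302 and 4055 TPM, 3545 and 3428 TPM, and 3258 and 2787 TPM in the same order, with an interaction of -0.48 (SE 0.10, adjusted p = 0.0394). mt-Nd6 (chrM:13552-14070, minus strand) was at 830 and 849 TPM, 1206 and 1057 TPM, 903 and 895 TPM, and 908 and 827 TPM, with an interaction of -0.48 (SE 0.097, adjusted p = 0.0377). In M1 and M2 these 3 mRNA were above every other library of set 1, and M4 was the lowest library for each.

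These were the only 4 of 105 respiratory chain genes called for the interaction in set 1, all lower, against 334 of 11905 genes in either direction (2.81%) and 223 lower (1.87%). All 13 mt-mRNA had negative values with a median of -0.45. At the unadjusted threshold there were 12 of them by limma, against 10.1% of all genes in that direction. mt-Nd3 was the exception at -0.20 (SE 0.11, limma adjusted p = 0.361). None of the 92 nuclear genes was called, 6 had an unadjusted p under 0.05 (2 higher, 4 lower) against 20.1% of all genes in either direction, and their median was -0.0077. The mt-mRNA share long transcripts, so the 13 are not separate measurements. With the replicate number as a block, 8 mt-mRNA were called by limma, 3 of the 4 above among them, and mt-Nd6 was not (adjusted p = 0.0550). Over all genes this block gave 189 calls. The block left the mt-mRNA values unchanged and made their SEs smaller. The numbers are not known to pair cultures, so the added calls are no further support. No respiratory chain gene was called with no filter on low TPM, or when M1 or any WT library was left out. There were 2 calls without M2 and 12 without M3 (11 mt-mRNA and Cox6b2). Over all genes there were 298 calls without M2 and 674 without M3, against 334 with all 8 libraries.

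Split by genotype, the mt-mRNA of WT cultures stood at like levels in either animal group, with a later minus earlier median of 0.020. In G234D cultures all 13 were lower in the later animals without overlap, by a median of -0.38, against 32.6% of all genes without overlap in that direction. Other-cell markers moved in the same libraries. In the earlier animals 14 of 14 tested skeletal muscle markers and 9 of 9 macrophage markers were higher in G234D without overlap. So were 6 of 7 Schwann cell and melanocyte markers, against 27.5% of all genes. Of 10 fibroblast markers 7 were lower without overlap, against 3603 of all 11942 genes, and 1 was higher without overlap. The summed muscle level was 188 and 152 TPM in W1 and W2, 540 and 407 TPM in M1 and M2, 141 and 196 TPM in W3 and W4, and 135 and 81.1 TPM in M3 and M4. In the interaction test 3 of 12 muscle markers (Acta1, Tnni1 and Tnni2) and 6 of 7 Schwann cell and melanocyte markers were called lower. Of 10 fibroblast markers 3 (Col3a1, Pdgfra and Twist1) were called higher. Over all genes 1.87% were called lower and 2.81% in either direction. The muscle enzyme gene Ckm was at 0 in W2 and M3 and at 0.858 TPM at most, and Dct, a melanocyte gene, was at 0 in M1. No macrophage marker was at 0 in any library. Summed fibroblast markers were lowest in M1 and M2, at 19338 and 21690 TPM against 21975 to 30950 TPM elsewhere. In M6, which had the highest mt-mRNA to nuclear ratio of all, the summed muscle and macrophage markers were at 131 and 119 TPM. Its Schwann cell and melanocyte markers summed to 26.0 TPM. All 3 sums were within the range of the other set 2 libraries. Its summed fibroblast markers, at 27280 TPM, were the lowest of set 2, where the others were at 28244 to 30950 TPM. The part of other cells in the mt-mRNA levels was not tested, in M6 or in any other library.

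**Figure D3:**
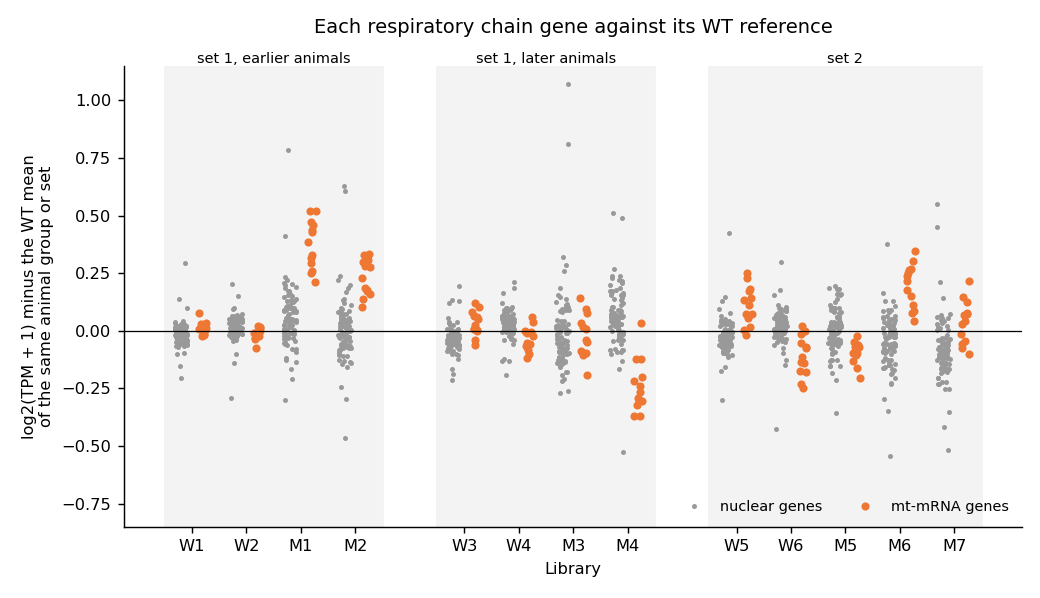
Each point is 1 tested gene in 1 library, as log2(TPM + 1) minus the mean of the WT libraries of the same animal group or set, with nuclear genes in grey and mt-mRNA in orange. The mt-mRNA of M1, M2 and M6 all lie above 0, with medians of 0.39, 0.23 and 0.21, while 12 of 13 in M4 and 13 of 13 in M5 lie below 0, with medians of -0.26 and -0.072.

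Between the animal groups themselves, with genotype as a covariate, 2 of 105 genes were called and both were higher in the later animals, against 850 of 11905 genes in either direction (7.14%) and 332 higher (2.79%). They were Cox7a2l and Ndufb9. Cox7a2l (chr17:83501918-83517330, minus strand) codes for a protein that takes part in joining complexes III and IV into supercomplexes. It was at 328 and 363 TPM in W1 and W2 and at 343 and 358 TPM in M1 and M2. In the later animals it was at 392 and 389 TPM in W3 and W4 and at 444 and 458 TPM in M3 and M4. All 4 later libraries were above all 4 earlier ones, the later G234D pair highest, and the difference was 0.27 (SE 0.052, limma, adjusted p = 0.0263). In set 2 Cox7a2l was at 432 to 460 TPM in all 5 libraries.

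Ndufb9, an accessory subunit of the complex I membrane arm (chr15:58933756-58939488, plus strand), was at 243 and 245 TPM in W1 and W2, 241 and 244 TPM in M1 and M2, 255 and 265 TPM in W3 and W4, and 288 and 288 TPM in M3 and M4. The earlier libraries were nearly equal and all later libraries lay above them, by 0.17 (SE 0.043, adjusted p = 0.0460). Among other nuclear genes, Cox8a (-0.14, SE 0.044, adjusted p = 0.0886) and Uqcrq, a small complex III subunit (-0.12, SE 0.039, adjusted p = 0.0870), had negative differences that did not pass the threshold. The 13 mt-mRNA had negative differences with a median of -0.18, and 0 were called. The medians were -0.0086 over nuclear genes and -0.022 over all genes. Both calls depended on single libraries. Without W1, M1, M2 or M4 there were 0 calls, without M3 both were lost and Ndufaf8 was called (0.36, limma, adjusted p = 0.0286), and without W2 or W4 Ndufb9 was lost. With no filter on low TPM, or with WT libraries alone, there were also 0.

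**Figure D4:**
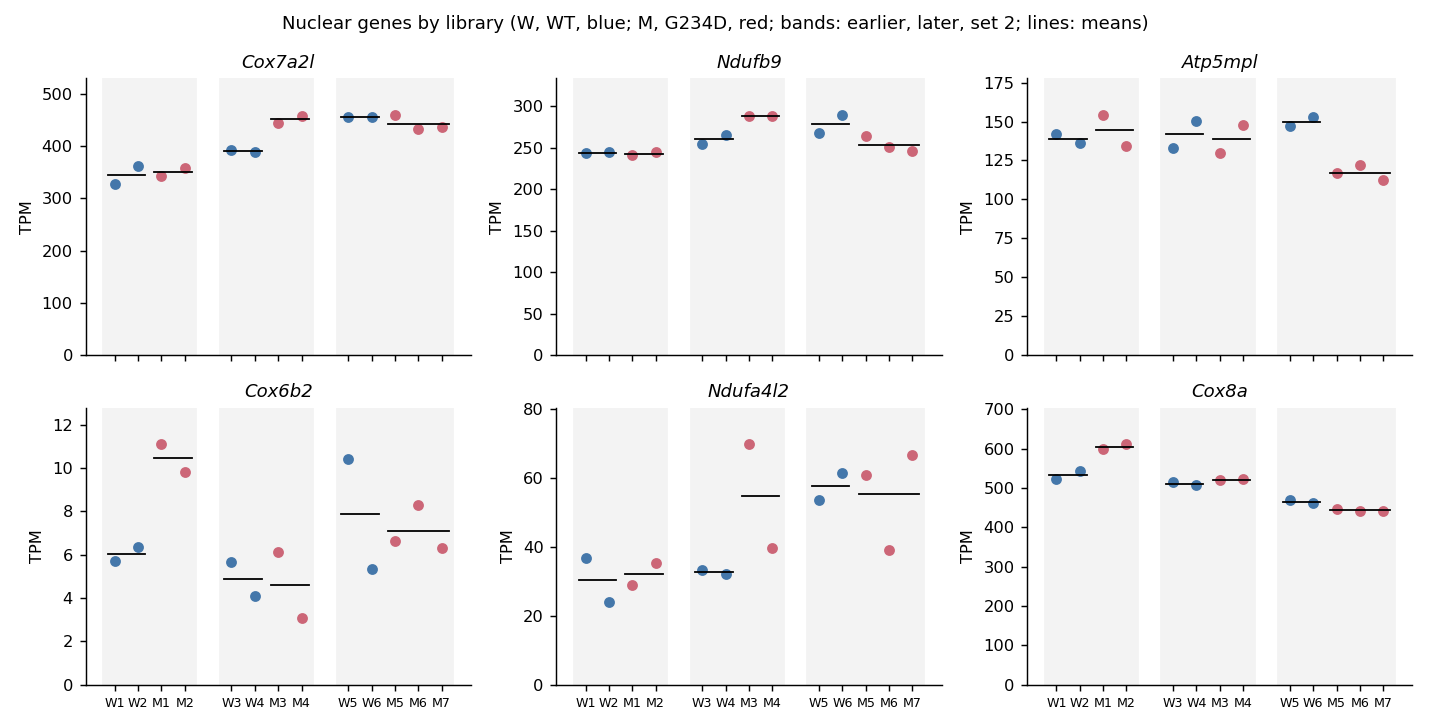
TPM of 6 nuclear genes in each library, WT in blue and G234D in red, with lines at group means, in the order earlier animals of set 1, its later animals, set 2. Cox7a2l and Ndufb9 are higher in the later animals of set 1, and Ndufa4l2 reaches 69.7 TPM in M3. Atp5mpl lies lower in the G234D libraries of set 2 but was not called.

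Several complex IV subunits exist as a form found in most tissues and a form of muscle, lung or other tissues. The cultures expressed the widespread forms. Cox4i1 was at 741 to 918 TPM over the 13 libraries and Cox4i2, a lung and hypoxia-linked form, at 2.53 to 6.26 TPM. Cox6a1 was at 556 to 788 TPM and its heart and muscle form Cox6a2 at 3.45 to 9.51 TPM. Cox7a2 was at 182 to 223 TPM and the muscle form Cox7a1 at 2.50 to 5.88 TPM. Cox8a was at 440 to 611 TPM, and the muscle form Cox8b reached 2.97 TPM in M1, was at 1.04 TPM or less in the other libraries and was at 0 in 6 of 13. In M1 and M2, the libraries with the most muscle marker RNA, Cox6a2 was at 4.88 and 6.80 TPM, within the range of the other libraries. Cox7a1 was at 5.40 TPM in M1 and, with its lowest value of all, at 2.50 TPM in M2. Cox6b1 was at 431 to 554 TPM. Its testis form Cox6b2 was at 11.1 TPM in M1 and 9.83 TPM in M2, at 3.06 to 6.35 TPM in the other 6 libraries of set 1, and at 5.35 to 10.4 TPM in set 2. Ndufa4, a complex IV subunit once assigned to complex I, was at 347 to 457 TPM. Its hypoxia-induced relative Ndufa4l2 was at 24.1 to 69.7 TPM, highest in M3. Of these 12 genes 11 were tested, and none was called in the genotype or animal group comparisons.

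The 2 sets differed in the composition of their mt-mRNA. Because their tables may have been normalized separately, levels across sets are described with no test. mt-Nd6 was at 827 to 1206 TPM in the 8 libraries of set 1 and at 1415 to 1646 TPM in the 5 of set 2, without overlap, a ratio of means of 1.66. It is the only one of the 13 coded on the other strand. The 3 shortest genes were lower in set 2: mt-Atp8 (204 bases) had a ratio of 0.707, mt-Nd4l (297 bases) of 0.703 and mt-Nd3 (348 bases) of 0.730. mt-Atp8 and mt-Nd3 did not overlap between the sets, and mt-Nd4l did, at 1071 to 1814 TPM against 759 to 1148 TPM. As shares of the summed mt-mRNA, all 3 were without overlap, with mt-Nd4l at 2.66% to 3.20% in set 1 and 1.68% to 2.18% in set 2. The share of mt-Co2 (684 bases) did not overlap either, at 15.5% to 16.9% in set 1 and 17.1% to 19.5% in set 2. The other 9 genes, 681 bases or longer, had ratios of 0.941 to 1.16. The summed mt-mRNA share was 4.71% ± 0.526 of TPM (SD, n = 8) in set 1 and 4.84% ± 0.355 (SD, n = 5) in set 2, so the total differed by less than the spread between libraries. Among nuclear genes, 2 were higher (Ndufa5 and Cox6a1) and 13 lower in set 2 without overlap, against 6.82% and 10.4% of all genes. Whatever else differed between the sets cannot be told apart in these ratios.

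**Figure D5:**
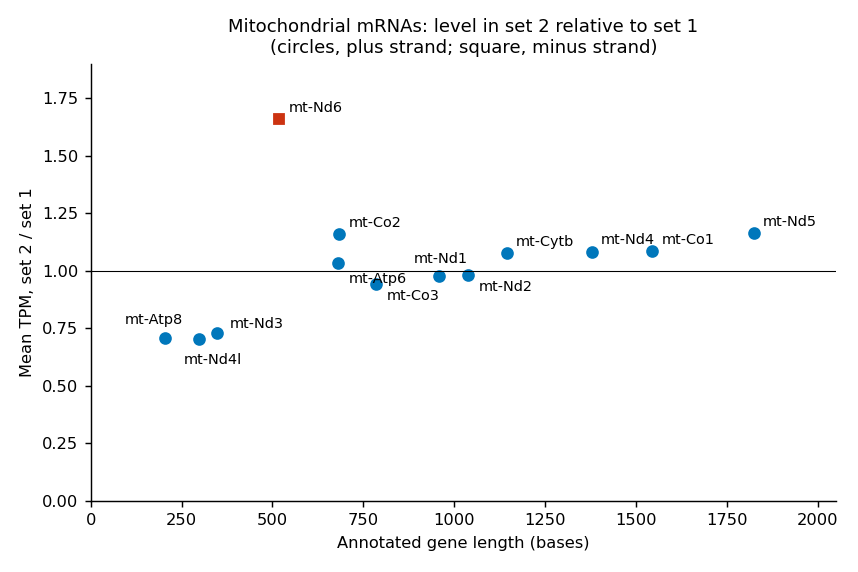
Mean TPM in set 2 divided by mean TPM in set 1 for each mt-mRNA, against the annotated gene length in bases, with plus-strand genes as circles and mt-Nd6 as a square. The 3 shortest genes lie at 0.703 to 0.730, mt-Nd6 lies at 1.66, and the other 9 lie at 0.941 to 1.16.

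Some mitochondrial genes share bases with a neighbour, both genes whose ratios stood apart (mt-Atp8, mt-Nd4l and mt-Nd6) and genes whose ratios did not (mt-Atp6, mt-Co3, mt-Nd4 and mt-Nd5), while mt-Nd3 stood apart and shares none. The stretches of more than 1 base are shown because their letters belong to both genes, and mt-Atp6 and mt-Co3 share 1 base (GENCODE M21 coordinates and GRCm38 sequence, plus-strand letters 5′ to 3′). mt-Atp8 ends inside mt-Atp6 over 43 bases at chrM:7927-7969, where the capitals mark the start codon of mt-Atp6 and the stop codon of mt-Atp8. mt-Nd4l ends inside mt-Nd4 over 7 bases at chrM:10167-10173, with capitals marking the same 2 features of that pair. mt-Nd5 and mt-Nd6 meet on opposite strands over 14 bases at chrM:13552-13565, where the first capitals are the complement of the mt-Nd6 stop codon and the last are the stop codon of mt-Nd5.
mt-Atp8 and mt-Atp6: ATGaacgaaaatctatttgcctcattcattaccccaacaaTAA
mt-Nd4l and mt-Nd4: ATGcTAA
mt-Nd5 and mt-Nd6: TTAatctcgagTAA
The library kit keeps strand, per the labels, and the strand setting used in counting is not given in the sources used here.

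Nuclear copies of mitochondrial DNA also share sequence with these genes. For 9 of the 13 mt-mRNA, some 50-base stretches occur in the transcript of another annotated gene. The share was 100% of stretches for mt-Co2, 99.9% for mt-Co3, 99.5% for mt-Atp6, 98.8% for mt-Nd4l and 98% for mt-Nd3. It was 62.2% for mt-Nd4, 51.1% for mt-Co1, 8.19% for mt-Nd2 and 7.61% for mt-Nd5, and 0 for mt-Nd1, mt-Atp8, mt-Nd6 and mt-Cytb. None of these other genes has a row in the tables, and how reads with several matches were counted is not given in the sources used here, so the levels of the genes with high shares are uncertain. 3 of the 4 genes called for the interaction, mt-Nd1, mt-Nd6 and mt-Cytb, have no such stretch. Among all 105 tested genes 55 share a stretch with another gene and 20 share over 10%. These include Cox7a2l with 13.8% and Ndufb9 with 15.6%. Ndufb9 shares its stretches with Gm49356, which was at 5.51 TPM or less.

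Genes that help to make, place or regulate respiratory chain proteins were taken from 8 lists with 198 tested genes. Of these 0 were called for genotype over both sets, in set 1, in set 2 or for the difference between the sets. List medians over both sets ran from -0.031 for 18 genes of mitochondrial DNA transcription and upkeep (lowest p in Top1mt, a mitochondrial topoisomerase, -0.13, adjusted p = 0.742) to 0.027 for 33 assembly genes of complexes II to V (Cox14, a complex IV assembly factor, 0.11, adjusted p = 0.742). The 78 mitochondrial ribosomal proteins had a median of -0.019 (Mrps6, -0.12, adjusted p = 0.742). The 18 RNA processing genes were at -0.0027 (Elac2, which trims tRNA ends, -0.063, adjusted p = 0.884), the 10 biogenesis regulators at -0.0060 (Nfe2l2, a regulator of antioxidant genes, 0.10, adjusted p = 0.805) and the 7 other complex I assembly genes at 0.020 (Foxred1, 0.092, adjusted p = 0.783). The 17 genes of the tricarboxylic acid cycle had a median of -0.025 (Fh1, the fumarase gene, -0.063, adjusted p = 0.865), and the 17 of import and carriers -0.0035 (Phb2, a prohibitin, -0.046, adjusted p = 0.899).

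Between the animal groups of set 1, 5 of the 198 genes of these lists were called by limma, against 7.14% of all genes. Tmem70, which assists the assembly of complexes I and V, was at 126 and 121 TPM in W1 and W2, 119 and 128 TPM in M1 and M2, 97.9 and 95.2 TPM in W3 and W4, and 94.5 and 83.9 TPM in M3 and M4. It was lower in all 4 later libraries, by -0.41 (SE 0.051, adjusted p = 0.00845). Myc, a growth regulator counted among the biogenesis regulators, was higher by 0.24 (adjusted p = 0.0272). Of 78 mitochondrial ribosomal proteins Mrpl23 was higher by 0.19 (adjusted p = 0.0425), while Mrpl20 and Mrpl18 were lower, at -0.16 and -0.17 (adjusted p = 0.0431 and 0.0450). For the interaction 0 genes of the 8 lists were called, against 2.81% of all genes. The lowest adjusted p among them was 0.0680, in Idh2, a mitochondrial isocitrate dehydrogenase, at 0.48. Tefm, the elongation factor of mitochondrial transcription, had an interaction of 0.50 (adjusted p = 0.170), opposite in sign to the mt-mRNA.

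Nuclear respiratory chain promoters are known for sites of NRF1, ETS-family and YY1 factors, and these were searched in windows of 300 bases (250 before to 50 after the gene start, RefSeq, GRCm38.p6) on both strands. A window was found for 74 of the 92 tested nuclear genes. The NRF1 motif, of 10 letters with any base at 1 position, occurred in 18 of 74 (24.3%). It occurred in 5.19% of all 27025 genes with a window and in 11.9% of the 9490 tested genes with a window. The ETS letters CCGGAAG occurred in 19 of 74 (25.7%), against 9.93% and 20.8%. The YY1 motif, of 11 letters, occurred in 5 of 74 (6.76%), against 0.755% and 1.9%, and 4 of these 5 were complex I subunits. The ETS letters were thus about as frequent as in other tested genes, and the NRF1 and YY1 letters were more frequent. A gene with more than 1 window was counted once per motif, and a gene with more than 1 of the motifs was counted once for each.

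Windows of 3 genes are shown with every match in capitals, on the strand of the gene. Cox6a1 (chr5:115348909-115349208, minus strand) holds 2 NRF1 matches, the second read on the other strand, and 1 ETS match, also read on the other strand. Ndufa9 (chr6:126849095-126849394, minus strand), a complex I subunit, holds the YY1 match shortly after the gene start. Cox7a2l (chr17:83514284-83514583, minus strand), called between the animal groups, holds none of the 3. Its window is set by the RefSeq start, which lies inside the longer GENCODE gene given above, so the upstream GENCODE start was not searched. No match says only that these letters are not in this window. Ndufb9 had no window in the table.
Cox6a1: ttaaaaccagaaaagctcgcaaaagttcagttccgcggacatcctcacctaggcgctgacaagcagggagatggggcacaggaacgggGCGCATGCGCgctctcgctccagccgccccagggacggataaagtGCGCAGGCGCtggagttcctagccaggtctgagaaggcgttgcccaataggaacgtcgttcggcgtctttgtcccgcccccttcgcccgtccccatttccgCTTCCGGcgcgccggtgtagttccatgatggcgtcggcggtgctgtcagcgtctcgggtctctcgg
Ndufa9: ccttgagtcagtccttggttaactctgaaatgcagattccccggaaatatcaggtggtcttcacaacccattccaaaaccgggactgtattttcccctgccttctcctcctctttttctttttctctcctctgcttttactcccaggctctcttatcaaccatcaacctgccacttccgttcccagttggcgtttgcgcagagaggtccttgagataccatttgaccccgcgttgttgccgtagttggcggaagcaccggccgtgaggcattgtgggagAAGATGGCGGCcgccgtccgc
Cox7a2l: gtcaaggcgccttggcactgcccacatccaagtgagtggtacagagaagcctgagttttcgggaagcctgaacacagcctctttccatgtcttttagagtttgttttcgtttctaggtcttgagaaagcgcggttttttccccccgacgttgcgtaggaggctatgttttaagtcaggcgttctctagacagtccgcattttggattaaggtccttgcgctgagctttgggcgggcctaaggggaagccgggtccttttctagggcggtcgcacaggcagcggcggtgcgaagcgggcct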

How the data were processed

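Libraries were made from total RNA with a stranded kit and the genome build was mm10, per the labels and the submitters' processing notes. For the aligner, counter, annotation and strand setting the sources used here give nothing. Per the file headers the deposited values are the authors' TPM, which hold no read totals, so depth is unknown. The planned test for TPM in place of counts was used: log2(TPM + 1) was tested with limma 3.58.1 in R 4.3.3 (mean-variance trend, robust empirical Bayes) on every gene that reached 1 TPM in 6 libraries (both sets), 4 (set 1) or 2 (set 2), with Benjamini-Hochberg adjustment over all of them and a threshold of 0.05. P-values set each difference against the spread between cultures that the terms of the fit leave. In the main genotype fits of set 1 and of both sets, this spread includes differences between the animal groups. Coordinates came from GENCODE M21.

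The genes, lists and the division by animal number were chosen with earlier results of these data known. Named genes were all mt-mRNA, called genes (up to 8 a direction) or otherwise the 3 lowest p a direction, the highest gene of each complex, the complex IV isoform pairs, complex II and Cyc1; in other lists the 3 lowest p among called genes, or else the lowest. Of each marker list the 3 highest were to be named, but outside fibroblasts and macrophages the text gives at most the highest marker and the sum of each list. The 6 untested genes, Ndufa5, Ndufa9, and markers that were called or at 0 were named after their values were seen. Some genes that the rule names are not reported here. Deviations from group means were correlated between same-numbered WT and G234D cultures. The correlations were 0.314, 0.236, 0.244 and 0.214 in set 1, and -0.155 and 0.0138 in set 2. In set 1 the best match had the same number for only 2 of the 4 G234D cultures. No main fit paired the cultures by number. The number entered as a block only in alternatives, in set 2 as well as in set 1. Same-numbered cultures of set 1 lie in the same animal group, and the group means spanned both animal groups. The correlations therefore cannot tell pairing by number from a shared animal group. No label says what a number shares. Sequences shared between genes were counted as 50-base stretches of annotated transcripts. On simulated data with 50 changed genes per fold size, 94% of 1.25-fold changes were recovered over both sets, 80% in set 1, 38% in set 2 and 66% between animal groups. The simulated libraries had no difference between animal groups other than planted ones, and changed genes were drawn from those of higher level. The genotype shares can therefore overstate what would be recovered in these data. Alternatives changed the filter, pseudocount, scaling, robust step, block and libraries.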

Additional observations from a re-analysis of the deposited data

Results flagged for a closer look

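In 5 of 102 groups of 4 libraries of set 1, 1 library stood apart from the other 3: its gap to the nearest value, divided by the whole range, was above 0.829 (Dixon's limit for 4 values, which chance passes in about 1 in 20 groups). Cox8b was at 0.283 TPM in W1 and at 0 in the other WT libraries, a gap of 1, and at 2.97 TPM in M1 against 0.304 TPM or less in the other G234D libraries, a gap of 0.898. Ndufa3 was lower in M2, at 166 TPM against 185 to 188 TPM (0.859). The assembly factors Ndufaf3 and Ndufaf8 were higher in M3 (17.1 TPM against 14.4 TPM or less, 0.861) and in M4 (31.1 TPM against 21.7 to 22.8 TPM, 0.890).

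The genotype difference of 4 mt-mRNA differed between the later and earlier animals of set 1 by the limma interaction test: mt-Nd1 by -0.53, mt-Nd2 by -0.59, mt-Nd6 by -0.48 and mt-Cytb by -0.48 on the log2 scale. Of the 13 mt-mRNA, 13 had negative values. Over all 11905 genes 223 were called lower (1.87%) and 334 in either direction (2.81%). The split by animal number was made with results of these data known. No respiratory chain gene was called when M1 or any WT library was left out.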

How the results depend on the processing

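For genotype over both sets, in set 1, in set 2 and between the sets, 0 respiratory chain genes were called under every alternative run (23, 18, 13 and 21 of them). Over all genes these gave 0 calls, up to 23 in set 1 (without M1 and M2), up to 21 in set 2 (replicate block) and up to 1 between the sets. For later against earlier animals, 2 calls became 0 with no filter on low TPM and 0 without the G234D libraries (added after the data were seen), and 0 to 2 with 1 library left out (0 without W1, M1, M2 or M4, 1 without W2 or W4, which was Cox7a2l, and 1 without M3, which was Ndufaf8). Calls over all genes ran from 36 (without M2) to 885. For the interaction, 4 calls became 0 with no filter, 0 with TPM rescaled without the mt- genes, which removes the mt-mRNA from the test, and 0 to 12 with 1 library left out (0 without M1 or any WT library, 2 without M2, 3 without M4, 12 without M3). Over all genes they ran from 46 (without M1) to 674 (without M3). The replicate block was added after the data were seen and rests on a pairing that no label gives. It gave 8 calls, all mt-mRNA, and 189 over all genes. It changed no other call among these genes, and the comparison of animal groups could not be fitted with it because each number lies within 1 group.

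The difference between the mean mt-mRNA and mean nuclear log2 level, G234D minus WT, was 0.27 in the earlier animals (0.22 to 0.33 with 1 library left out), -0.16 in the later (-0.30 to -0.018) and 0.088 in set 2 (-0.043 to 0.22), with a spread of 0.15 (SD) within groups. No result changed direction among those called. Where 1 library is left out of a pair, the lone library is assumed to vary like the rest. Depth is unknown, and with 2 or 3 cultures in a group only differences well above their spread could be called. Levels of mt-mRNA with nuclear copies and of overlapping genes rest on unknown counting rules.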
